A study of Camelus dromedarius with 4 samples.

Results

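A group of 10 astrocyte genes that bear on the glial plasticity of the supraoptic nucleus were examined in the dromedary camel in winter and in summer. They are GFAP, VIM, S100B, AQP4, SLC1A2, SLC1A3, GLUL, GJA1, GJB6 and ALDH1L1. The members were taken by symbol from the deposited table of season means, where 10 of 10 had a value among the 16049 symbols used. RNA was sequenced from 2 winter and 2 summer samples of the nucleus, from healthy, age-matched adult males of the Tergui breed. The winter animals were slaughtered at El Oued and the summer animals at Ouargla, so season, place and day of collection cannot be told apart. All animals were hydrated, and no drug or genetic change was involved. The samples are whole dissected tissue, in which fewer astrocytes and less of an RNA per astrocyte cannot be told apart.

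Astrocytes of the supraoptic nucleus wrap the magnocellular neurones that make vasopressin and oxytocin. In the rat their fine processes are known to withdraw when the neurones are stimulated by dehydration or lactation, which brings neuronal membranes into contact and changes how glutamate and other transmitters are cleared. The genes examined cover the cytoskeleton of these cells, their water channel, their glutamate uptake and recycling, their gap junctions, and 2 widely used markers, S100B and ALDH1L1.

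Depth and library quality bear on what follows. The deposited files of raw counts hold between 4379162 and 6902037 reads on 64989 gene models per library, but these models carry no gene names, so the named genes come from the table of season means. Each mean there is the average of 2 libraries after division by a size factor, and it is a sum of whole reads, which could be solved back to the reads of each library for 9855 symbols. The libraries so recovered carry no replicate number. They are called A and B within a season, with size factors of 0.922 and 0.877 in summer and of 1.33 and 0.946 in winter. Summer library A stood apart from the rest. It held 0 reads for 282 of the 7614 genes tested, against 5 to 12 in each of the other libraries, and it lay more than 8-fold below summer library B in 655 of them.

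The season means split the members. GFAP, VIM, S100B, AQP4 and GJA1 each had a summer mean more than 1.5-fold above the winter mean, which makes 5 of 10 members, against 12.2% of the 13808 symbols whose mean reached 10 normalized counts in either season. AQP4 reached that level through its summer mean alone, at 10.0089 against 4.98198 in winter. No member (0 of 10) had a winter mean more than 1.5-fold above the summer mean, against 10.1% of symbols. In all, 6 of 10 were higher in summer by any amount, as were 53.8% of symbols. GLUL and the glutamate transporters SLC1A2 and SLC1A3, with GJB6 and ALDH1L1, had season means closer together than this. Every member had a value, but the members were taken by symbol from these same season means. Their presence therefore does not test the label of the group. GFAP was among the most read genes, although AQP4, a defining gene of astrocyte endfeet, had hardly any reads. The median log2 ratio of winter to summer was -0.38 over the 10 members and -0.04 over all those symbols. These ratios compare means of 2 libraries and carry no error of their own.

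**Figure D1:**
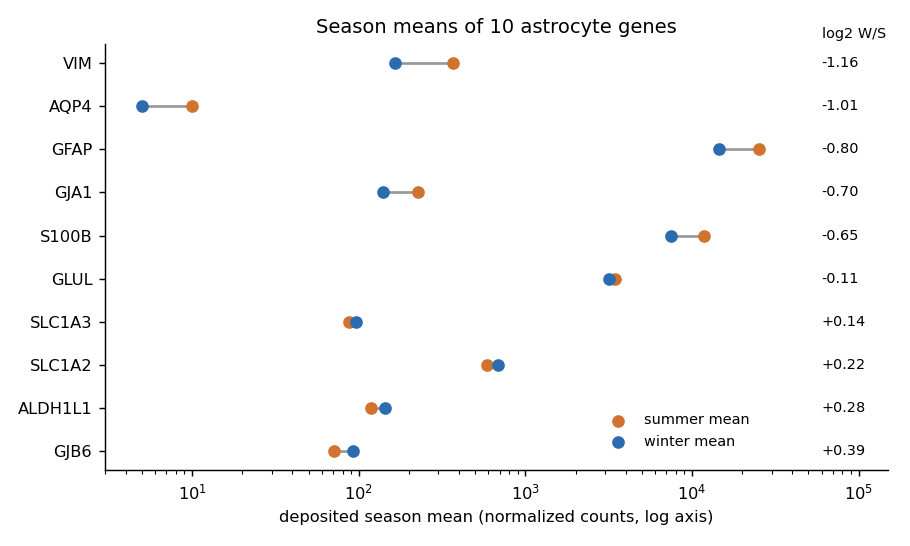
Deposited season mean of each member in normalized counts (log axis), summer in orange and winter in blue, ordered by the log2 ratio of winter (W) to summer (S) printed at the right. VIM, AQP4, GFAP, GJA1 and S100B lie to the right in summer, from -0.65 to -1.16 on the log2 scale, while the other members lie between -0.11 and 0.39.

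GFAP encodes the intermediate filament protein that defines mature astrocytes. The summer mean was 25073.6 normalized counts and the winter mean 14423.4. The summer value was thus 1.74 times the winter value (log2 ratio of winter to summer -0.80). Among all symbols GFAP held rank 1 by normalized count in summer and rank 2 in winter. These ranks count reads and are not corrected for transcript length. The gene took 0.731% of the summed means of the table in summer and 0.413% in winter.

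S100B, a calcium-binding protein of astrocytes that some oligodendrocytes also make, had the next highest means of the members. They were 11788.4 normalized counts (summer) and 7489.75 (winter), which lie -0.65 apart on the log2 scale. GFAP and S100B together made up 88.2% of the summed member means in summer and 82.9% in winter. Without both genes, the member sum was 4924 in summer and 4525 in winter, so most of the difference in the total of the list lay in these 2 genes.

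GLUL encodes glutamine synthetase, which turns the glutamate taken up by astrocytes into glutamine. Means of 3450.4 (summer) and 3193.65 (winter) normalized counts put it at a log2 ratio of -0.11, close to the median of all symbols. GFAP, S100B and GLUL are the 3 members with a mean of at least 1000, and 2 of them were more than 1.5-fold higher in summer, against 4.43% of the 610 symbols at that level. The reads of these 3 genes could not be assigned to libraries, because their means have between 129 and 9331 solutions in whole reads per season. No test was therefore run on them. For scale, among the 709 unnamed gene models with a mean of at least 1000 in the count files, the libraries of a season differed by a median of 1.25-fold in winter and 1.49-fold in summer.

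**Figure D2:**
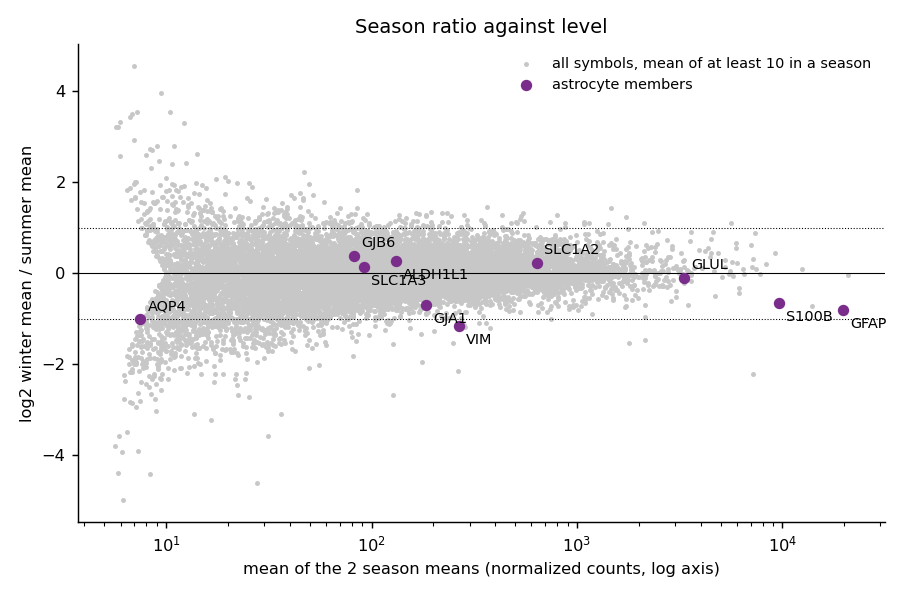
Log2 ratio of the winter to the summer mean (vertical axis) against the mean of both seasons in normalized counts (log axis) for symbols whose mean reached 10 in either season, in grey, with the 10 members in purple. Dotted lines mark a 2-fold difference and 3 symbols at 0 in a season are not drawn. GFAP and S100B lie at the right end below 0, and VIM and AQP4 lie just past the lower dotted line.

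VIM encodes vimentin, the filament partner of GFAP in immature and reactive astrocytes and in tanycytes, which endothelial and other cells make too. The summer mean of 367.083 normalized counts compares with 164.811 in winter (log2 ratio -1.16), the widest gap of the members. VIM and AQP4 were the 2 of 10 members with a summer mean more than 2-fold above the winter mean, against 4.53% of symbols, while 0 of 10 were more than 2-fold higher in winter, against 2.72%. AQP4 is counted here through its summer mean alone, which only just reached 10 (10.0089, with 4.98198 in winter). In reads, VIM had 224 in summer library A and 431 in summer library B. For winter, 2 pairs of whole reads give the mean equally well, namely 228 with 149 or 413 with 17 (A with B).

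These solutions give different pictures of the same difference. Under the first, VIM stood at 172 and 157.6 normalized reads in winter against 243 and 491 in summer, with both summer libraries above both winter libraries. Added to the fit across all genes (edgeR's quasi-likelihood test), it then gave a log2 fold change of -1.15 with an SE of 0.41, an unadjusted p of 0.0253 and a Benjamini-Hochberg adjusted p of 0.982. Under the second, winter library A stood at 311.6 and winter library B at 17.98, the seasons overlapped, and the unadjusted p was 0.271. Only the first is past the rule of an unadjusted p under 0.05 with more than a 2-fold difference. The second puts winter library B 17.3-fold below winter library A. A gap of more than 8-fold in that direction was seen in 31 of the 7614 genes tested. Which solution holds for VIM could still not be told from the table.

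AQP4, the water channel of astrocyte endfeet, was the member with the fewest reads. Each summer library held 9 reads of it, winter library A also 9, and winter library B 3. In normalized reads these were 9.76 and 10.3 in summer and 6.79 and 3.17 in winter, so both summer libraries lay above both winter libraries, as they did in 17.2% of the genes tested. A count of 3 reads has an exact Poisson 95% interval of 0.619 to 8.77 reads and a count of 9 one of 4.12 to 17.1, which cover counting error only. The log2 fold change in the fit was -0.92 with an SE of 0.92 (unadjusted p = 0.347, adjusted p = 0.982, edgeR's quasi-likelihood test). A difference was thus not detectable with so few reads of the gene.

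The astrocyte glutamate transporters had season means within 1.5-fold of each other. SLC1A2 (which carries most glutamate uptake in the forebrain) averaged 591.964 normalized counts over the summer libraries and 688.908 over the winter ones (log2 ratio 0.22). Its means solve to 2 pairs of reads in summer and 3 in winter. Each of the 6 combinations left the seasons overlapping, with an unadjusted p between 0.686 and 0.761 and an SE between 0.52 and 0.71 when added to the fit. In each of the winter solutions library A lay above library B, while the summer solutions disagreed on the order.

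SLC1A3 (GLAST, the transporter shared with radial glia and tanycytes) had 52 and 104 reads in summer libraries A and B and 153 and 73 in winter libraries A and B. After division by the size factors these were 56.4 and 119 in summer and 115 and 77.2 in winter. The highest and the lowest value were both in summer, and the seasons overlapped. The fit put winter 0.15 above summer on the log2 scale, with an SE of 0.45 (unadjusted p = 0.747, adjusted p = 0.985, edgeR's quasi-likelihood test).

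The gap junction genes went in opposite directions by season mean. GJA1, the connexin that couples astrocytes most widely, averaged 226.847 normalized counts over the summer libraries and 139.487 over the winter ones (log2 ratio -0.70). It had 102 and 301 reads in summer libraries A and B, and its winter mean solves to 88 and 201 or to 273 and 69 reads. The seasons overlapped under both solutions, and the fit gave an unadjusted p of 0.314 and 0.312, with SEs of 0.66 and 0.63.

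GJB6, the second astrocyte connexin, had 29 and 97 reads in summer libraries A and B and 175 and 51 in winter libraries A and B. These were 31.4 and 111 normalized reads in summer and 132 and 53.9 in winter. Each season held 1 high and 1 low library, 3.52-fold apart in summer and 2.45-fold in winter, so the seasons overlapped. The log2 fold change was 0.41 with an SE of 0.64 (unadjusted p = 0.537, adjusted p = 0.982, edgeR's quasi-likelihood test).

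ALDH1L1, a folate enzyme widely used to mark astrocytes, showed the same arrangement. It had 65 and 147 reads in summer libraries A and B and 281 and 72 in winter libraries A and B, or 70.5 and 168 normalized reads in summer and 212 and 76.1 in winter. The difference within each season, 2.38-fold in summer and 2.78-fold in winter, was larger than the 1.21-fold between the season means. The log2 fold change was 0.29 with an SE of 0.57 (unadjusted p = 0.625, adjusted p = 0.982, edgeR's quasi-likelihood test).

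**Figure D3:**
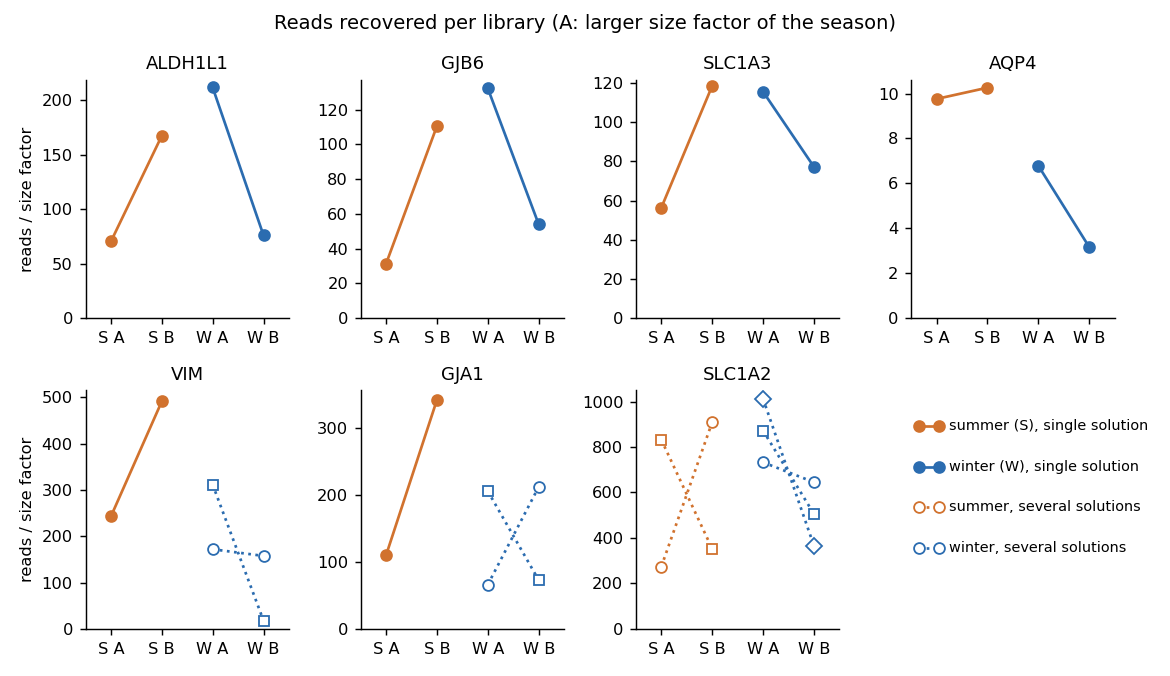
Reads divided by the size factor in summer (S, orange) and winter (W, blue) libraries A and B for the 7 members whose means could be solved, with lines joining the libraries of a season and each vertical axis starting at 0. Filled points are single solutions, and open points with dotted lines are alternative solutions, of which only 1 per season is real. ALDH1L1, GJB6 and SLC1A3 are high in summer B and winter A, and only AQP4 has both summer libraries above both winter libraries with no alternative.

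Of the 4 members with a single solution in both seasons (AQP4, SLC1A3, GJB6 and ALDH1L1), 0 were past the rule of an unadjusted p under 0.05 and more than 2-fold in edgeR's quasi-likelihood test, where 1.68% of the 7614 genes tested were (0.854% higher in winter and 0.827% higher in summer). None of the 4 had an unadjusted p under 0.05, and the same count of 0 past the rule came from edgeR's exact test, DESeq2 and limma-voom. Over all genes tested 0 had an adjusted p under 0.05 and 152 an unadjusted p under 0.05, while the exact test and DESeq2 each gave 1 gene past the adjusted threshold. That count was 230 without summer library A and 224 without summer library B, and 0 without either winter library. With 2 libraries against 2 an exact two-sided permutation test cannot give a p below 0.333.

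For ALDH1L1, GJB6 and SLC1A3 the libraries of a season differed more than the season means did. All 6 members with a single solution in summer had more normalized reads in library B than in library A, an order seen in 54.8% of the 11979 symbols so solved. All 4 members with a single solution in winter had more in library A than in library B, as did 53.5% of 7617 symbols. Both orders held together in these 4 members and in 34.1% of the genes tested. Among genes whose mean reached 50 that share was 31.5%. In AQP4 the summer libraries had equal reads and differed through the size factors alone. The other 3 showed both orders by more than 1.3-fold, as did 16.5% of the genes tested. This order was noticed after the values were seen, and the members share the same 4 libraries. Summed over these 4 members, the normalized reads were 168 and 407 in summer libraries A and B and 466 and 210 in winter libraries A and B.

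The direction of the season difference therefore turned on single libraries. Without winter library A the fitted log2 fold change was -0.64 for ALDH1L1, -0.39 for GJB6 and -0.18 for SLC1A3. Without summer library A it was -0.21, -0.24 and -0.29 in the same order. Without summer library B it was 1.04 for ALDH1L1 (unadjusted p = 0.0209) and 1.57 for GJB6 (unadjusted p = 0.00286, both edgeR's quasi-likelihood test), and these 2 members were then past the rule. Without that library 15.1% of the genes tested were past it (12.4% higher in winter). AQP4 kept its sign whichever library was dropped, from -1.62 to -0.55.

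Other genes that mark astrocytes were read from a list of 31, of which 26 had a mean of at least 10. By season means 18 were higher in winter and 8 in summer, with a median log2 ratio of 0.22. Of these 26, 3 were more than 1.5-fold higher in winter and 1 in summer. NDRG2 and CLU, the most read genes of the list, had means of 3160.46 and 2713.11 normalized counts in summer and of 3458.48 and 3693.93 in winter. Of its 9 genes in the fit, 0 were past the rule. Those 9 had a median log2 ratio of -0.17 against 0.22 for the 26, and the 4 members in the fit one of 0.21 against -0.38 for the 10, so the medians of the genes that could be tested had the other sign.

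Of the 9 genes of this list in the fit, 8 were higher in summer library B than in A and also higher in winter library A than in B, beside 34.1% of all genes tested. The order was not limited to these lists. It held in 4 of 6 genes of glutamate recycling and transmitter transport in the fit. Summer library B was above A in 5 of 6 neuronal and 4 of 4 ependymal markers with a single solution in summer. Over all symbols so solved the share was 54.8%. It was lower in microglial (1 of 3), endothelial (4 of 10), oligodendrocyte (0 of 2), reactive astrocyte (5 of 11) and other connexin genes (3 of 7). In the list of other astrocyte genes it was 14 of 16, and the remaining lists lay between 60% and 71.4%. In winter, library A was above B in 5 of 6 genes each of the endothelial, other connexin and glutamate recycling lists. Counts were 2 of 3 in the microglial and in the endfoot list, and 3 of 6 in the process and in the meningeal list. They were 4 of 9 in the reactive astrocyte, 1 of 2 in the other filament and 1 of 3 in the ependymal list. The 1 neuronal marker solved in winter had this order too. Over all symbols solved in winter the share was 53.5%. SOX9, a transcription factor of astrocytes chosen here after its values were seen, stood at 16.3 and 95.7 normalized reads in summer libraries A and B and at 111 and 32.8 in winter libraries A and B. The exception among the 9 genes of the astrocyte list was RANBP3L, at 63.4 in winter library A and 93.1 in winter library B. The summed normalized reads of the 9 genes were 441 and 784 in summer and 711 and 447 in winter.

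**Figure D4:**
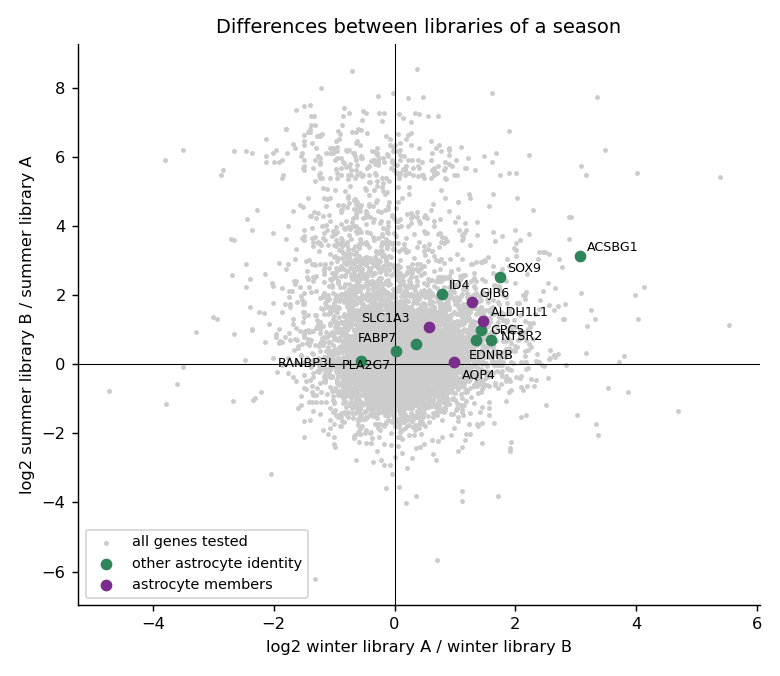
Log2 ratio of summer library B to A (vertical axis) against log2 ratio of winter library A to B (horizontal axis), in reads divided by size factors with 0.5 added, for all 7614 genes tested (grey), the 4 members in the fit (purple) and 9 other astrocyte genes (green). The 4 members and 8 of the 9 other genes lie in the upper right, above 0 on both axes, and a cloud of grey points at the top marks genes nearly absent from summer library A.

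Genes that work beside the members were taken from lists by role. Of 12 endfoot genes for water and potassium handling, 8 had a higher mean in winter, with a median log2 ratio of 0.18. DTNA and DMD, of the complex that anchors AQP4 at endfeet, had log2 ratios of 0.15 and -0.18. Of 16 genes of glutamate recycling and transmitter transport, 10 were higher in winter, with a median of 0.07. SLC7A10, a transporter of serine and other small amino acids in astrocytes, was the only gene of that list with means more than 2-fold apart. It had 7 and 23 reads in summer libraries A and B and 86 and 10 in winter libraries A and B, so the seasons overlapped. GRM3, a glutamate receptor gene of astrocytes and neurones, had a log2 ratio of 0.01.

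The relatives of the connexins and filaments were mixed. Of 8 genes of other connexins, pannexins and the junction scaffold TJP1 that reached a mean of 10, 6 were higher in winter. GJB2, from the same connexin subfamily as GJB6, was counted 13 and 20 times in the summer libraries against 15 and 3 times in the winter ones (log2 ratio -1.35). GJA4, a connexin of arterial endothelium, was counted 5 and 2 times against 11 and 20 times (log2 ratio 1.94). Neither was past the rule. TJP1 and GJB1, the most read of that list, had log2 ratios of 0.39 and 0.53. Of 9 other filament genes 7 were higher in winter, and NEFM and NEFH had log2 ratios of 1.45 and 1.28. SYNM, a filament partner of GFAP and VIM, was at 0.18 and NEFL at 0.61. NEFL, NEFM and NEFH encode neurofilaments, which are built by neurones.

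Genes of astrocyte processes, adhesion and synapse formation numbered 16, of which 9 were higher in winter, with a median log2 ratio of 0.16. THBS1, a secreted protein that promotes synapses, had 8 and 4 reads in summer libraries A and B and 28 and 22 in winter libraries A and B, with no overlap and winter higher, as in 13.4% of the genes tested. CHRDL1, another secreted protein of astrocytes, was counted 46 and 69 times in summer against 45 and 22 times in winter, with no overlap and summer higher once divided by the size factors. Neither was past the rule (unadjusted p = 0.0666 and 0.0512, edgeR's quasi-likelihood test). SPARCL1 and RDX, the most read, had log2 ratios of -0.43 and 0.25.

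Of 13 genes of reactive astrocytes, 7 were higher in winter. Of the 9 in the fit, 1 was past the rule, beside 1.68% of all genes tested. CHI3L1, a secreted glycoprotein of reactive astrocytes and macrophages, was counted 8 times in each summer library against 40 and 38 times in winter. The fit gave a log2 fold change of 1.96 with an SE of 0.70 (unadjusted p = 0.0242, adjusted p = 0.982, edgeR's quasi-likelihood test). PTX3 (14 and 5 reads against 5 and 4) and ASPG (0 and 12 against 26 and 17), given as summer against winter, were more than 2-fold apart in means but not past the rule. C3 and CP, the most read, had log2 ratios of 0.51 and -0.19.

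**Figure D5:**
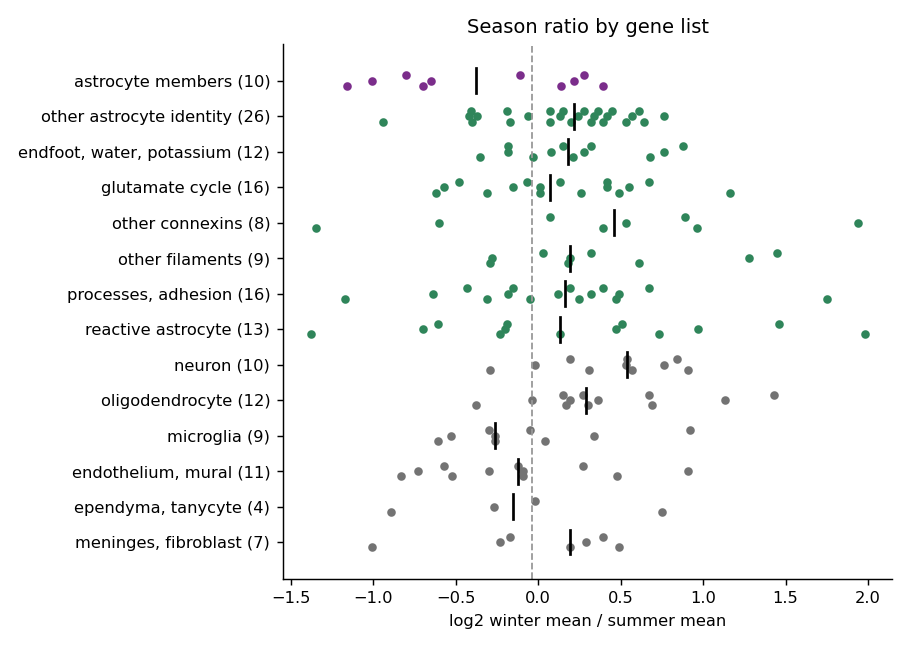
Log2 ratio of the winter to the summer mean for each gene whose mean reached 10 (points), by list, with the list's median as a black bar and the median of all symbols as a dashed line (number of genes in parentheses, members in purple, other astrocyte lists in green, other cell types in grey). The members have the lowest median here, -0.38, and the neuronal list the highest, 0.54. With a mean of 10 required in both seasons the member median was -0.11, above those of the microglial (-0.26), ependymal (-0.15) and endothelial (-0.12) lists.

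Markers of other cells in the dissected tissue also differed in their season means, and their part in the member values was not tested. The fit held 1 neuronal, 3 microglial, 6 endothelial and mural and 3 ependymal markers. None of these was past the rule, beside 1.68% of all genes tested, and no oligodendrocyte marker could be fitted. Of 6 meningeal and fibroblast markers in the fit, 1 was past it (COL1A2). So few genes could not show whether these cell types differed by season. Of 10 neuronal markers 8 had a higher mean in winter, and their summed means were 11380 in summer and 11811 in winter. The median log2 ratio of the 10 was 0.54. MAP2 and UCHL1, the most read, were the 2 higher in summer, at -0.02 and -0.29. MAP2 alone had means of 6540.38 in summer and 6437.89 in winter, a large part of both sums. Of 12 oligodendrocyte markers 10 were higher in winter, with sums of 40216 in summer and 46572 in winter. MYRF and SOX10, transcription factors of that lineage, had log2 ratios of 1.43 and 1.13, while MBP, a major myelin protein gene, was at 0.67.

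Of 9 microglial markers 6 were higher in summer, with sums of 9026 over all the measured markers in summer and 6957 in winter. C1QB and C1QC, complement genes of microglia, had log2 ratios of -0.61 and -0.53. The 3 microglial genes in the fit, AIF1, CSF1R and TMEM119, had a median log2 ratio of 0.34, with the other sign from the -0.26 of the 9. CSF1R, a receptor that microglia need to survive, was at 0.92 with both winter libraries higher (unadjusted p = 0.0788, edgeR's quasi-likelihood test). Of 11 endothelial and mural markers 8 were higher in summer, and TEK and VWF were at -0.30 and 0.27. Summed over the 12 measured, the means were 2198 in summer and 2063 in winter.

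Only 4 ependymal and tanycyte markers reached a mean of 10, of which 3 were higher in summer and 1 in winter. The summed means of the 9 measured markers were 402 in summer and 297 in winter. DNAH11 and DNAH9, dynein genes of motile cilia, were at -0.89 and -0.27, while the other two, RSPH1 and SPEF2, were at 0.75 and -0.02. The 3 in the fit summed to 60.7 and 214 normalized reads in summer libraries A and B and to 146 and 158 in winter libraries A and B, so the widest gap lay within summer. Of 7 meningeal and fibroblast markers 4 were higher in winter. Of the 6 in the fit, 1 was past the rule, beside 1.68% of all genes tested. COL1A2, a fibrillar collagen gene, was counted 106 and 78 times in summer against 56 times in each winter library and was past the rule (log2 fold change -1.02, unadjusted p = 0.0321, adjusted p = 0.982, edgeR's quasi-likelihood test). PTGDS and COL3A1, the most read, were at 0.29 and -0.23.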

How the data were processed

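RNA-seq libraries of the supraoptic nucleus (2 winter, 2 summer) were grouped by season from the sample labels. The authors mapped paired reads with TopHat to a dromedary genome that they had assembled, counted them with HTSeq and deposited raw counts per gene model, which give the depth here. A second table per gene symbol holds a signal, which the authors made by scaling counts with DESeq and averaging the libraries of a season. Columns with the authors' own ratio (edgeR fold change) and p-value were deposited in it too and were not used. Versions are not given in the sources used here, nor is the way several gene models of 1 symbol were merged.

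Whole reads per library were recovered from the season means by finding what 1 read was worth in each library. Season means of 100% of symbols came out as whole reads, but high means have many solutions and would do so in any case. Summer means of up to 10 were also all solved, against 0.0418% after a random move of up to 3%. Single solutions become rare at high means, so the 7614 genes tested are 55.1% of the 13808 symbols whose mean reached 10. Of these symbols 11979 had a single solution in summer and 7617 in winter. A high winter mean was thus the main reason that a gene was left out. The median log2 fold change of the genes tested was -0.112, and the median log2 ratio of means was -0.0365 over the 13808. The fit used edgeR 4.0.16 in R 4.3.3 (glmQLFit without the legacy method, then glmQLFTest, offsets from the size factors), with Benjamini-Hochberg adjustment. Alternatives were edgeR's exact test, DESeq2 (version 1.42.0), voom from limma 3.58.1, other scalings, filters and fold thresholds, and each library left out. Solutions of VIM, GJA1 and SLC1A2 were added to the fit after seeing the data. Scripts were tested on simulated data.

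The members and gene lists were chosen with earlier results of these data known. From each other list the genes named are those past the rule, those with means more than 2-fold apart, and the 2 with the highest mean, except that some of these are not reported here. Of the listed genes, 17 had no value in the table. The labels name no animals. The study's own text counts camels, 2 for each season, in the RNA-seq comparison, and the p-values measure the spread between these libraries.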

Additional observations from a re-analysis of the deposited data

How the results depend on the processing

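Of the 4 members in the fit, 0 were past the 2-fold rule under each other test, scaling, filter and a fold threshold of 1.5. This changed only when single libraries were dropped, as described above for GJB6 and ALDH1L1 without summer library B. VIM, GJA1 and SLC1A2 were fitted in the main setting alone, where VIM was past the rule under 1 of its 2 solutions. GFAP, S100B and GLUL were not tested. When a library was dropped, the lone library of its season was assumed to vary like the others. The log2 fold change ranged from -0.29 to 0.78 for SLC1A3, from -0.39 to 1.57 for GJB6 and from -0.64 to 1.04 for ALDH1L1, so each changed sign. No other alternative changed a sign. ALDH1L1 could not be fitted with low-mean genes alone, nor AQP4 with a mean of 10 required in both seasons. The member median of -0.38 lay between -0.38 and -0.11 under other pseudocounts, centring and filters, the last with that filter. The list of reactive astrocyte genes had a median of 0.13, which was -0.21 with a mean of at least 50 required, and that of meningeal genes went from 0.19 to -0.17. Over all genes the 128 past the rule were 60 with DESeq2, 83 with limma-voom and 79 with a mean of 10 in both seasons, where fewer genes were tested, and from 33 (without winter library A) to 1152 (without summer library B) with a library left out. For the others the cause was not tested. Of those 128, 65 were higher in winter, against 121 of 167 with total reads as the scale. No paired analysis was possible because the tissue was taken at slaughter, so no animal was sampled in both seasons. The recovered libraries carry no replicate number either.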

Other observations

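Some astrocyte genes that brain tissue usually carries at clear levels had few reads or no value here. These were chosen after their values were seen. AQP4 had at most 9 reads in a library, NCAN had season means of 3.42 and 2.19 normalized counts in summer and winter, and SPARC is listed without a value. Other astrocyte genes lay much higher, with season means of 631 and 663 for SLC4A4, 599 and 632 for HEPACAM and 166 and 192 for MLC1, so low values were not general to genes of the cell type. Why AQP4, NCAN and SPARC were low or without a value was not tested.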
